A study of Homo sapiens with 2 samples.

Results

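In PANC-1 cells, a line derived from a human pancreatic ductal carcinoma, 672 regions carried a wide peak under the solvent DMSO and no peak under inflachromene, a compound that binds the chromatin proteins HMGB1 and HMGB2. These regions were chosen by 2 measured properties of the deposited peak lists, a width of at least 330 bp in the DMSO list and the absence of any inflachromene peak overlapping by 1 bp or more. They are 672 of 6710 DMSO peaks of that width and of 15186 DMSO peaks in all on chromosomes 1 to 22 and X. They are called wide DMSO-alone peaks below, and the remaining 6038 wide DMSO peaks, which overlapped an inflachromene peak, are called wide shared peaks. The series holds 1 library of PANC-1 cells treated with inflachromene and 1 of PANC-1 cells treated with the solvent DMSO, each represented by 1 list of peaks. For both, fixation took 30 min in 15 mM EGS, a protein crosslinker, and then 10 min in 1% formaldehyde, per the labels' protocols. Glycine at 125 mM ended the fixation. The sources used here name neither the antibody's target nor the dose or length of treatment. Each treatment is 1 library of 1 cell line, so no test between treatments was possible, intervals are exact Clopper-Pearson or Poisson 95% intervals that cover counting error only, and all values compare 2 libraries.

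ChIPmentation is a chromatin immunoprecipitation in which Tn5 transposase inserts the sequencing adapters into chromatin held on the beads. A peak caller then reports stretches where the pileup, the number of fragments covering a base, stands above the local background. The width of a peak is the length of the stretch above the caller's threshold, and its summit is the base with the highest pileup. In promoters of actively transcribed genes, DNA just upstream of the transcription start is usually depleted of nucleosomes and bound by general and sequence-specific transcription factors. Many such promoters lie in CpG islands and hold GC boxes, ETS sites or CCAAT boxes, the last bound by the trimeric factor NF-Y. HMGB proteins bend DNA and bind it with little sequence preference.

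The promoter sequences of 8 wide DMSO-alone peaks are shown, because most of these regions lay at gene starts. The first 5 are those of highest fold enrichment with an annotated start inside the peak, and LATS2, SAV1 and NR3C1 were added after their values were seen. Each window holds 300 bases, from 250 before to 50 after the start, read 5′ to 3′ along the gene's strand from RefSeq on GRCh38.p14. Capitals mark matches on either strand to 12 motifs, and overlapping matches run together. ETS factors were represented by CCGGAAG, SP and KLF factors by GGGCGG and the trimer NF-Y by CCAAT. NRF1 was represented by GCGCATGCG, YY1 by AAGATGGC, ZBTB33 by TCTCGCGAG and E2F factors by TTTGGCGC. The E-box was searched as CACGTG, and the TATA box as TATAAA. The cyclic AMP element was searched as TGACGTCA, the AP-1 site as TGANTCA and the ZNF143 core as ACTACAA.
LRRIQ3, chr1:74198127-74198426, minus strand: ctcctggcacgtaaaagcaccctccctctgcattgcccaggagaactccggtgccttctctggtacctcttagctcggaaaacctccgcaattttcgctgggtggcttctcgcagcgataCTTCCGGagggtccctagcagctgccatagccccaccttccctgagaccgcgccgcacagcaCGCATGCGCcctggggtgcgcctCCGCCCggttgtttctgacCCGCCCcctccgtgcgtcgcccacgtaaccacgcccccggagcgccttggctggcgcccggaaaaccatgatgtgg
NPIPB6, chr16:28364731-28365030, minus strand: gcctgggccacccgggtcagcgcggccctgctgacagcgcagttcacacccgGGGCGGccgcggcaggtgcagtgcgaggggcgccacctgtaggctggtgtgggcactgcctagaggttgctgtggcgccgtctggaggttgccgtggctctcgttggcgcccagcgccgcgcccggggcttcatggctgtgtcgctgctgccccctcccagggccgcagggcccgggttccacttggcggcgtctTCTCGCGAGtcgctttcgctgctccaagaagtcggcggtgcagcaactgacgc
SEC24A, chr5:134648535-134648834, plus strand: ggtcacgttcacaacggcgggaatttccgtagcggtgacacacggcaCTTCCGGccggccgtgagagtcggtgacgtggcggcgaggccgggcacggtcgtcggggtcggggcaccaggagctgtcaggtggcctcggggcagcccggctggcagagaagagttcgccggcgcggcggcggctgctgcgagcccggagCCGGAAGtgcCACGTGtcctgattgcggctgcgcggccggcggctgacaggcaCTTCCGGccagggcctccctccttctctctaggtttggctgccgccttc
MCM9, chr6:118935110-118935409, minus strand: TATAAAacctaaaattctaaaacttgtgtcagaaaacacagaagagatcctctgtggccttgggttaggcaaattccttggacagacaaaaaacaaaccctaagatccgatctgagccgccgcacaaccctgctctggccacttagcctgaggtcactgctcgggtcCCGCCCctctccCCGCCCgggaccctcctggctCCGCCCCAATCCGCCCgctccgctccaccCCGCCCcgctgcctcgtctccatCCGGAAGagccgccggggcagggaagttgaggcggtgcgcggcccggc
HECTD4, chr12:112382382-112382681, minus strand: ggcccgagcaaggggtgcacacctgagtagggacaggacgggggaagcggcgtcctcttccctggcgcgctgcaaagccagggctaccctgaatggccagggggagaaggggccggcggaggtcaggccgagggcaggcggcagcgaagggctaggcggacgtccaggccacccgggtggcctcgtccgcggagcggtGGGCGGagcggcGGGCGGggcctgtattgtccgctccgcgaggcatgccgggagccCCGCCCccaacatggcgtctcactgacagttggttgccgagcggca
LATS2, chr13:21061537-21061836, minus strand: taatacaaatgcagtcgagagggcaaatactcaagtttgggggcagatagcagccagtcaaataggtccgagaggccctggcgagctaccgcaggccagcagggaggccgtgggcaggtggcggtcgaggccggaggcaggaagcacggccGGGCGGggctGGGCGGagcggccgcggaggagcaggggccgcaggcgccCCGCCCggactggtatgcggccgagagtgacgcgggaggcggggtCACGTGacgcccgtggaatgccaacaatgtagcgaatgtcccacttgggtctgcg
SAV1, chr14:50668257-50668556, minus strand: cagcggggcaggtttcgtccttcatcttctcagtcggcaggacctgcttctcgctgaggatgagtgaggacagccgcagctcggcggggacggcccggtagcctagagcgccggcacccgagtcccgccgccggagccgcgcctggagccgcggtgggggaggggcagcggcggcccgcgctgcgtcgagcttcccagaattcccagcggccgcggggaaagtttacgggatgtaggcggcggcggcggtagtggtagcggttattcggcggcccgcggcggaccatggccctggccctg
NR3C1, chr5:143403637-143403936, minus strand: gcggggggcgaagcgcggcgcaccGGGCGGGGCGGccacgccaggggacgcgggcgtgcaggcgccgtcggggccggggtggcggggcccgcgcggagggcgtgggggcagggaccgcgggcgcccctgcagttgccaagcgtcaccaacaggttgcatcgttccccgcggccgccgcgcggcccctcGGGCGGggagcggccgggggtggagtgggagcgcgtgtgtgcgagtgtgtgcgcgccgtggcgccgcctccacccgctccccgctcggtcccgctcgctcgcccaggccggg

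All 8 windows are rich in G and C, between 61.3% at MCM9 and 82.3% at NR3C1. GGGCGG was found in 6 of them, with 5 matches at MCM9, which also held 1 CCAAT and 1 TATAAA match. CCGGAAG occurred 3 times at SEC24A and 1 time each at LRRIQ3 and MCM9. GCGCATGCG occurred at LRRIQ3, TCTCGCGAG at NPIPB6, and CACGTG at SEC24A and LATS2. None of the 12 motifs was found in the SAV1 window. A match is a description of letters and does not show that a factor was bound.

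Wide peaks were seldom missing after inflachromene, and the share fell steadily with width. Of all DMSO peaks, 35.5% had no inflachromene peak, and of those at least 330 bp wide 10.0% (9.31 to 10.8). The share was 76.7% (75.1 to 78.3) among DMSO peaks under 200 bp, 27.2% (24.6 to 30.0) from 300 bp up to the 330 bp limit, 16.5% (15.0 to 18.2) at 330 to 399 bp and 3.60% (2.61 to 4.81) at 600 bp or more. The inflachromene list, which is shorter, with 10836 peaks against 15186, had fewer such regions of its own. Of 4808 inflachromene peaks at least 330 bp wide, 66 (1.37%, 1.06 to 1.74) had no DMSO peak. With both lists at the length of the shorter, 6.31% of wide DMSO peaks had no inflachromene peak. The reverse share was not computed at equal length. The rule used width and overlap, so these shares describe how the regions were chosen.

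**Figure D1:**
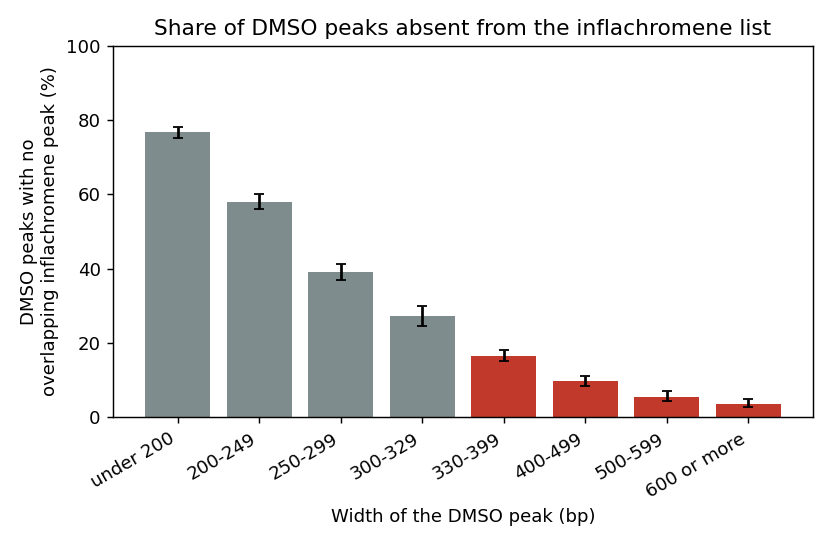
Share of DMSO peaks with no overlapping inflachromene peak (y axis, percent) by width of the DMSO peak (x axis, bp), with exact 95% intervals. Red bars are the widths of at least 330 bp, where the share fell to 3.60% at 600 bp or more, and grey bars are narrower peaks, with 76.7% under 200 bp.

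The regions were broad but low. Pileups were recovered from the authors' fold enrichments and p-values as whole numbers of fragments. Wide DMSO-alone peaks had a median width of 395 bp, with a highest value of 951 bp, against 455 bp in wide shared peaks. Their summits held a median of 18 fragments (quartiles 15 and 23, range 9 to 83), against 37 fragments (26 and 51) in wide shared peaks. The authors' fold enrichment had a median of 6.81 against 10.5. The local background under the summit was 1.71 fragments in wide DMSO-alone peaks and 2.48 in wide shared peaks. Narrower DMSO-alone peaks, 4718 in number, had a median of 16 fragments at 203 bp. At the width limit, the 43 DMSO-alone peaks under 5 bp above it had a median of 19 fragments (11 to 37), and the 50 up to 5 bp below it had 16 (9 to 28).

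Among wide DMSO peaks, the pileup went with whether an inflachromene peak was present. Of those with 9 to 14 fragments, 62.8% (56.1 to 69.1) had none. The share was 29.5% (25.5 to 33.9) at 18 to 20 fragments, 6.36% (4.81 to 8.22) at 26 to 30 and 0.473% (0.245 to 0.824) above 40, where 12 of 2538 had none. Within 1 pileup class the background differed little at low pileups and clearly at high ones. At 15 to 17 fragments its median was 1.51 fragments in wide DMSO-alone peaks and 1.504 in wide shared peaks, whereas above 40 fragments it was 8.52 and 3.34.

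Most summits stood several fragments above the level at which the inflachromene list begins. The lowest −log10 p in that list was 5.88. At the DMSO background of each region, a median of 11 fragments (7 to 61) would have reached it, and the DMSO summits exceeded this level by a median of 7 fragments (quartiles 5 and 10, highest 28). The inflachromene list gives no pileup where no peak was called. Were the background the same, a summit just below the level would be 0.542 times the DMSO pileup in the median region, and 0.5 times or less in 271 of 672 (40.3%, 36.6 to 44.1). Shared peaks of any width had inflachromene pileups 0.833 times those in DMSO in the median. With that ratio applied to every region, 652 of 672 (97.0%, 95.4 to 98.2) would still have reached the level. Those pileups were high enough for a DMSO peak by the choice of the regions, and the ratio comes only from peaks called in both lists, so nothing is read from this count about the inflachromene signal there. In DMSO, 85 (12.6%) lay within 3 fragments of it. Among wide shared peaks with up to 25 fragments, 16 of 1364 (1.17%) had a ratio of 0.5 or lower, but that set leaves out positions with no inflachromene peak. The caller also requires a minimum length above its threshold, which this calculation does not include. The regions were chosen for lacking an inflachromene peak, so these bounds follow in part from the choice. With 1 library per treatment, whether the signal itself differed at these regions was not tested. If it did, fewer cells with the signal and less signal per cell cannot be told apart in a bulk library.

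**Figure D2:**
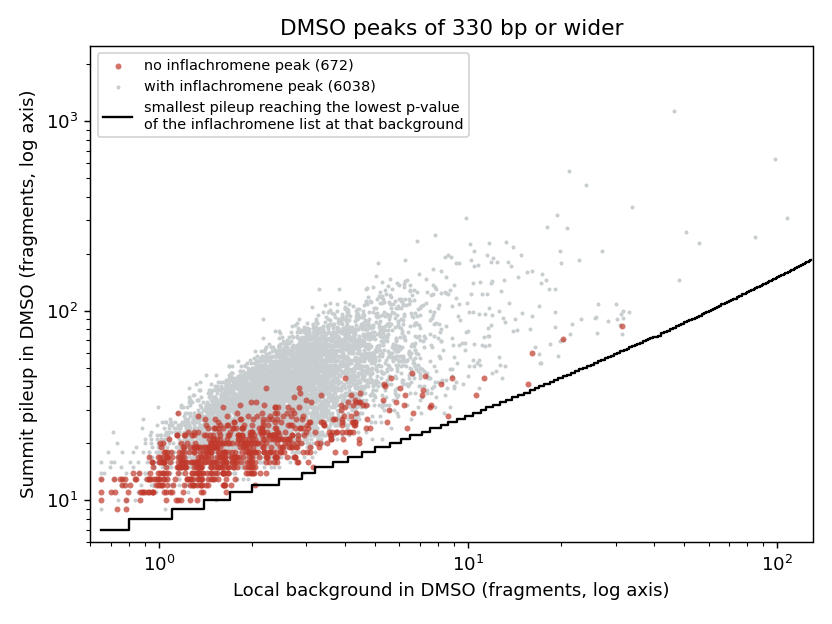
Summit pileup (y axis) against local background (x axis) in DMSO, both in fragments on log axes, for 672 wide DMSO-alone peaks (red) and 6038 wide shared peaks (grey). The black line is the smallest pileup that reaches the lowest p-value of the inflachromene list at that background, and the red points lie on or above it, by a median of 7 fragments.

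The regions lay at gene ends about as often as DMSO peaks of any width, and less often than wide shared peaks. Of the 672, 380 (56.5%, 52.7 to 60.3) had their summit within 1000 bp of an end of a protein-coding gene, 158 (23.5%) lay inside genes away from the ends and 134 (19.9%) between genes. Of all 15186 DMSO peaks 54.1% (53.3 to 54.9) lay at gene ends, a share inside the interval of the regions. Of wide shared peaks 69.9% (68.7 to 71.1) lay at gene ends, 16.0% inside and 14.1% between genes. Narrower DMSO-alone peaks lay at gene ends in 33.4% (32.0 to 34.7) of cases. The wide regions were thus at gene ends less often than wide shared peaks and more often than narrower DMSO-alone peaks, with intervals that do not overlap. Exons and introns could not be told apart with the gene table used here.

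Compared at equal pileup, the intervals for wide DMSO-alone and wide shared peaks overlapped in each class up to 25 fragments and were apart in each class above it. At 9 to 14 fragments, 46.4% (38.0 to 55.0) of wide DMSO-alone peaks and 59.0% (47.7 to 69.7) of wide shared peaks lay at gene ends. At 15 to 17 fragments, 63.8% (55.5 to 71.5) of wide DMSO-alone peaks and 56.7% (49.7 to 63.6) of wide shared peaks lay at gene ends. At 18 to 20 fragments the shares were 62.1% (53.6 to 70.2) and 64.4% (59.0 to 69.5). Above 25 fragments they were 48.1% (38.3 to 58.0) over 106 wide DMSO-alone peaks and 71.8% (70.5 to 73.1) over 4674 wide shared peaks. Above 25 fragments, the regions without an inflachromene peak thus lay at gene ends less often than wide shared peaks. They also had another DMSO peak within 2000 bp in 24.5% (16.7 to 33.8) of cases, against 10.4% (9.52 to 11.3), and a background above 4 fragments in 41.5% (32.0 to 51.5), against 22.04% (20.9 to 23.3). The part of the background in this result was not tested.

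**Figure D3:**
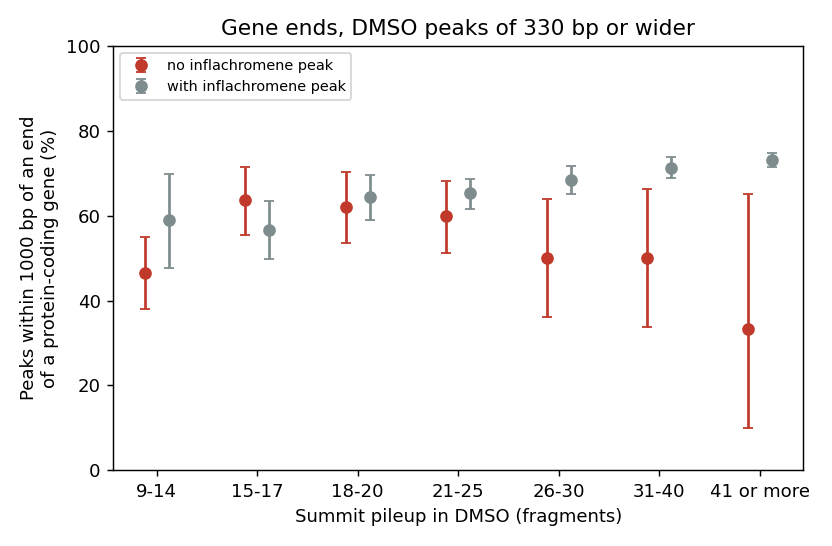
Share of peaks with the summit within 1000 bp of an end of a protein-coding gene (y axis, percent) by summit pileup in DMSO (x axis, fragments), with exact 95% intervals. Wide DMSO-alone peaks (red) and wide shared peaks (grey) have overlapping intervals up to 25 fragments and separate ones in the 3 classes from 26 fragments on, where the red points lie at 50%, 50% and 33.3%.

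Annotated starts allowed ends to be split on every chromosome except 8, which the promoter table used here does not cover. It gives a start for 15812 of 19974 protein-coding genes (79.2%). On the chromosomes covered, 346 of 646 wide DMSO-alone peaks (53.6%, 49.6 to 57.5) had the summit within 1000 bp of a start and 291 (45.0%) within 250 bp. The shares in wide shared peaks were 67.4% (66.2 to 68.6) and 57.7%. Summits of wide DMSO-alone peaks lay a median of 49 bp upstream of the start (signed distance -49 bp, quartiles -100 and -1.25), against -95 bp (-159 and -40.5) in wide shared peaks. They were within 100 bp of the start in 63.9% (58.6 to 68.9) of cases, against 46.3% (44.7 to 47.8), and downstream of it in 24.6% (20.1 to 29.5), against 14.1% (12.99 to 15.2). Wide shared peaks with up to 25 fragments resembled the regions more closely, with a median of -56 bp and 23.2% (20.4 to 26.2) downstream.

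**Figure D4:**
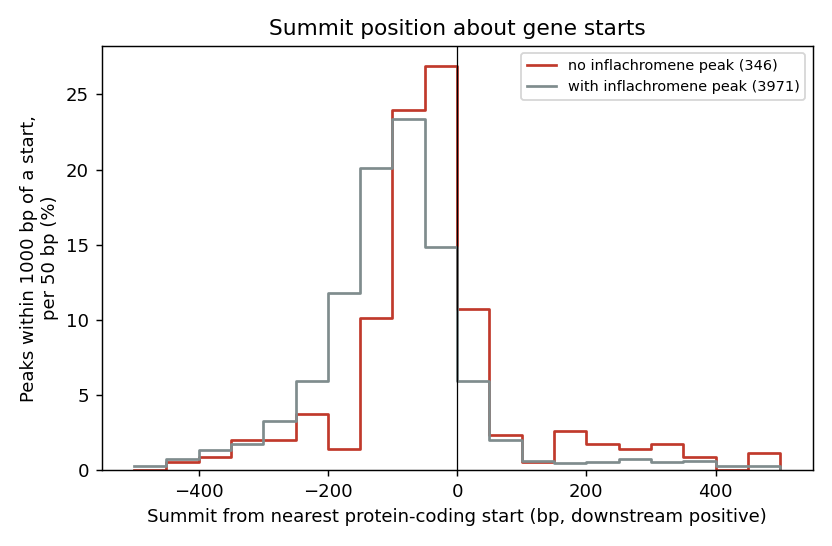
Distance of the summit from the nearest protein-coding start (x axis, bp, downstream positive) for peaks within 1000 bp of one, as percent of peaks per 50 bp (y axis), drawn from 500 bp before to 500 bp after the start. Wide DMSO-alone peaks (red, 346) centre nearer the start, with a median of -49 bp, than wide shared peaks (grey, 3971), with -95 bp.

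The position of the summit within the peak was recorded as well. In 239 of 672 wide DMSO-alone peaks (35.6%, 31.9 to 39.3) the summit lay in the outer 25% of the peak's length at either side, against 13.9% (13.02 to 14.8) of wide shared peaks. At 9 to 14 fragments it was 55.7% (47.1 to 64.1) in wide DMSO-alone peaks and 39.8% (29.2 to 51.1) in wide shared peaks, and at 21 to 25 fragments 23.4% (16.6 to 31.3) and 20.2% (17.3 to 23.2). At 15 to 17 fragments it was 36.2% (28.5 to 44.5) in wide DMSO-alone peaks and 32.2% (25.9 to 39.0) in wide shared peaks. At 18 to 20 fragments the shares were 35.0% (27.1 to 43.5) and 26.3% (21.7 to 31.4). The intervals overlapped in each class up to 25 fragments, with the higher share in wide DMSO-alone peaks each time. Pooled up to 25 fragments the intervals were apart, with 37.6% (33.6 to 41.8) and 24.7% (22.4 to 27.1). In that pool, 140 of 566 wide DMSO-alone peaks and 83 of 1364 wide shared peaks had only 9 to 14 fragments. The intervals were also apart at 26 to 30 fragments, with 31.5% (19.5 to 45.6) and 16.1% (13.6 to 18.8), and above 40, with 4 of 12 regions and 7.72% of wide shared peaks. They were not apart at 31 to 40, with 12.5% (4.19 to 26.8) and 13.2% (11.4 to 15.1). At FJX1, described with the Hippo genes, the summit lay at 0.0350 of the peak's length.

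The promoters at these regions were CpG-rich and held CCAAT less often than those at wide shared peaks. Of the 438 protein-coding genes with a wide DMSO-alone peak at an end, 363 had a promoter window in the table. Their median GC content was 69.7%, against 66.7% over 4368 windows at wide shared peaks and 62.3% over all 22132 windows. A ratio of observed to expected CpG of at least 0.6 was found in 92.6% (89.4 to 95.0), against 92.1% (91.2 to 92.9) and 62.2%. CCAAT was present in 27% (22.5 to 31.9) of the windows, against 45.5% (44 to 47) at wide shared peaks and 34.6% of all windows. At wide shared peaks with up to 25 fragments the share was 29.9% (26.9 to 33.1), with an interval overlapping that at wide DMSO-alone peaks. Over wide shared peaks CCAAT was in 16.9% (10.7 to 24.96) of windows at 15 to 17 fragments and in 54.9% (52.7 to 57.1) above 40.

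**Figure D5:**
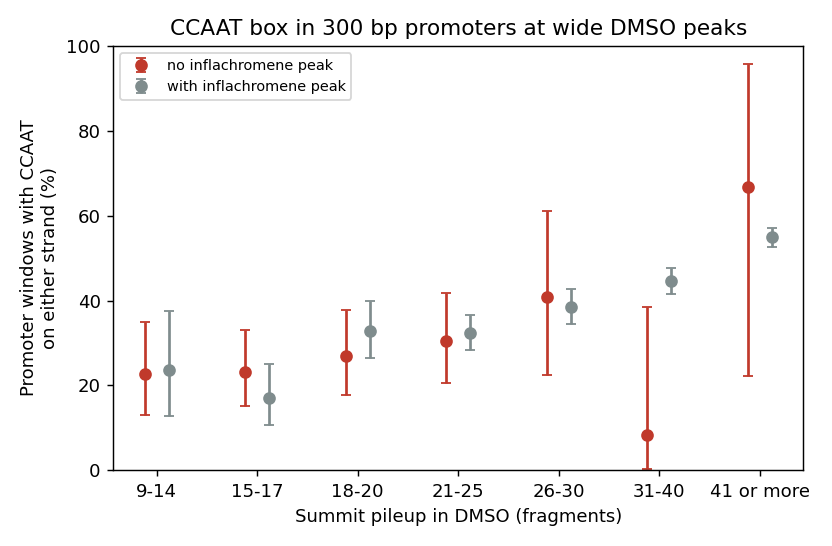
Share of 300 bp promoter windows with CCAAT on either strand (y axis, percent) by summit pileup in DMSO of the wide peak at the gene's end (x axis, fragments), with exact 95% intervals. At wide shared peaks (grey) the share was 16.9% at 15 to 17 fragments and 54.9% above 40. Wide DMSO-alone peaks (red) follow it with overlapping intervals in all classes but 31 to 40 fragments, where 1 of 12 windows at red points held a match (8.33%).

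For the other motifs the windows at wide DMSO-alone peaks had intervals overlapping those at wide shared peaks with up to 25 fragments. GGGCGG was in 79.3% (74.8 to 83.4) of them, against 77.8% (76.5 to 79) at wide shared peaks and 56.3% of all windows. Its longer form GGGGCGGGG, which contains it, was in 33.3% (28.5 to 38.4), against 32.1% (30.7 to 33.5) and 20.6%. CCGGAAG was in 20.1% (16.1 to 24.6), against 22.1% (20.9 to 23.4) and 12.8%. Thus GC boxes and ETS matches were about as common as at wide shared peaks, and more common than in all windows. CACGTG was in 9.09% (6.34 to 12.5), against 11.7% (10.8 to 12.7) and 8.34%. GCGCATGCG was in 5.51% (3.4 to 8.38), against 4.05% (3.49 to 4.68) and 2.36%. AAGATGGC was in 6.06% (3.84 to 9.03), against 6.82% (6.09 to 7.61) and 3.54%. These 3 were each in fewer than 1 of 10 windows at wide DMSO-alone peaks. TGACGTCA was in 2.2% (0.956 to 4.3), against 3.87% (3.32 to 4.48) and 2.26%, and the shorter TGACG, contained in it, in 35.5% (30.6 to 40.7), against 39.9% (38.5 to 41.4) and 27.9%. The TEAD letters GGAATG were in 6.61% (4.28 to 9.68), against 9.84% (8.98 to 10.8) and 12.2%. TATAAA was in 3.31% (1.72 to 5.7), against 4.24% (3.66 to 4.88) and 9.46%. Thus TATAAA and the TEAD letters were less frequent at wide peaks of both kinds than in all windows. Matches anywhere in the window were counted, so TATAAA matches need not lie where a TATA box acts. The remaining letters, searched on both strands too, were TGANTCA (AP-1), ACAAAG (SOX and TCF), GGGANTTCC (NF-kB), GTTGCCAT (RFX), TTTGGCGC, TCTCGCGAG and ACTACAA. They were found in 0.826% (GTTGCCAT and TTTGGCGC) to 6.89% (4.51 to 10) (ACAAAG) of the windows at wide DMSO-alone peaks. In all windows the shares were 6.15% for TGANTCA, 13.6% for ACAAAG, 2.07% for GGGANTTCC, 1.35% for GTTGCCAT, 0.818% for TTTGGCGC, 0.935% for TCTCGCGAG and 2.85% for ACTACAA.

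The region of highest fold enrichment, 13.95, lay on chromosome 1 (74198039 to 74198370) at the shared start of LRRIQ3, FPGT, encoding an enzyme of fucose salvage, and the read-through gene FPGT-TNNI3K. Its summit held 29 fragments (Poisson interval 19.4 to 41.6) in DMSO, where 9 would have reached the inflachromene list's level. NPIPB6, of the multicopy nuclear pore complex interacting protein family, had 39 fragments at 12.4-fold on chromosome 16 (28364662 to 28365085). Its near-identical copies leave the origin of these fragments uncertain. SEC24A, encoding a cargo-binding subunit of the COPII coat of secretory vesicles, had 31 fragments at 12.3-fold on chromosome 5 (134648488 to 134648838). MCM9, encoding a helicase of homologous recombination, had 28 fragments at 10.9-fold on chromosome 6 (118934943 to 118935359). HECTD4, of the HECT family of ubiquitin ligases, had 25 fragments at 10.8-fold on chromosome 12 (112382316 to 112382651). Their widths ran from 332 bp at LRRIQ3 to 424 bp at NPIPB6. C17orf50, with 33 fragments at 11.4-fold, and THEM6, with 33 fragments at 11.1-fold, also had the region at an end.

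Another 5 of the 12 regions with the highest fold enrichment lay away from gene ends. The strongest inside a gene was in NDUFAF6, encoding an assembly factor of respiratory complex I, with 28 fragments at 12.4-fold on chromosome 8 (95024764 to 95025174). ABCC12, encoding an ABC transporter, held a region of 29 fragments at 10.8-fold. TACC2, encoding a centrosomal coiled-coil protein, held one of 39 fragments at 10.4-fold on chromosome 10 (122063188 to 122063558). The others named inside genes were in PPP6R2, a regulatory subunit gene of protein phosphatase 6, with 25 fragments, CPA5, with 27 fragments, and TBCE, encoding a tubulin folding cofactor, with 37 fragments. All 6 had fold enrichments of 9.83 or more.

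Between genes, the highest fold enrichment was 11.7, with 32 fragments, on chromosome 10 (4704205 to 4704538), 120641 bp from AKR1E2, the nearest protein-coding gene. A region of 27 fragments at 11.6-fold lay 6575 bp from B4GALNT3, encoding a glycosyltransferase, and one of 27 fragments at 11.1-fold 5243 bp from TENM2, encoding a teneurin. The others lay 224377 bp from LOC124908048 (23 fragments), 13809 bp from DDI2 (27 fragments) and 11006 bp from KIF1A (31 fragments). Of all 672 wide DMSO-alone peaks, 46 (6.85%, 5.05 to 9.03) lay at least 50 kb from any protein-coding gene end, against 3.25% (2.81 to 3.72) of wide shared peaks and 5.69% (5.33 to 6.07) of all DMSO peaks. Among peaks of up to 25 fragments the intervals overlapped, with 7.24% (5.25 to 9.70) of wide DMSO-alone peaks and 5.13% (4.02 to 6.44) of wide shared peaks.

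Of the 8 widest regions, 7 had the summit within 1000 bp of an annotated start, some of them alternative starts inside a gene. The widest, 951 bp, lay inside TLCD1 on chromosome 17 (28725623 to 28726573), with 38 fragments at 4.77-fold. An inflachromene peak lay 398 bp away. The region of 941 bp at a start of NR3C1, encoding the glucocorticoid receptor, held 23 fragments (14.6 to 34.5) at 4.87-fold on chromosome 5 (143403576 to 143404516), and it also lay at an end of LOC128966704. The nearest inflachromene peak to it was 633145 bp away. ACBD6, encoding an acyl-CoA-binding protein, had 824 bp and 22 fragments, and TMEM267 had 784 bp and 28 fragments. WDR4, encoding a subunit of a tRNA methyltransferase, had 766 bp and 18 fragments. RBCK1, encoding a subunit of the linear ubiquitin chain assembly complex, had 761 bp and 15 fragments. The region in PPP2R2C, a regulatory subunit gene of protein phosphatase 2A, had 743 bp and 14 fragments.

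All 12 regions above 40 fragments stood on a background above 4 fragments, against 871 of 2526 wide shared peaks above 40 fragments (34.5%, 32.6 to 36.4). MYADM, encoding a membrane protein of the MAL family, held a region of 749 bp with 71 fragments (55.5 to 89.6) over a background of 20.3, at 3.38-fold. A region with 83 fragments over a background of 31.4, at 2.59-fold, lay on chromosome 1 (228619158 to 228619550) beside RNA5S5, a 5S ribosomal RNA gene of a tandem array. Reads from such an array cannot be assigned to a single copy. NR4A1, encoding an orphan nuclear receptor induced as an immediate early gene, had 44 fragments over a background of 11.3 at an end, 3.67-fold. At these the level of the inflachromene list lay closer, as the highest pileup below it was 0.620 of the DMSO pileup at MYADM, 0.723 beside RNA5S5 and 0.659 at NR4A1. By contrast the fractions were 0.282 at NPIPB6, 0.333 in TACC2 and 0.351 in TBCE. NR4A1 was named after its values were seen.

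Few regions had an inflachromene peak close by, and few had another DMSO peak close by. The nearest inflachromene peak was a median of 43287.5 bp away, with a lowest gap of 56 bp, and the nearest other DMSO peak a median of 29312.5 bp. The inflachromene peak lay over 10 kb away for 554 (82.4%, 79.3 to 85.2), and within 2000 bp for 47 regions (6.99%, 5.18 to 9.19). Another DMSO peak lay within 2000 bp of 59 regions (8.78%, 6.75 to 11.2), an overlapping interval. Wide shared peaks were about as isolated, with another DMSO peak within 2000 bp in 9.56% (8.83 to 10.3) and a median gap of 26119.5 bp. Of all DMSO peaks 11.7% (11.2 to 12.2) had one within 2000 bp. At MSH6, encoding a mismatch recognition protein of DNA repair, the DMSO region held 17 fragments and an inflachromene peak lay 600 bp away. Of the 438 genes with a wide DMSO-alone peak at an end, 36 (8.22%) had an inflachromene peak at an end by another position, MSH6 and FASN among them, and 402 had none. Of the 380 regions at gene ends, 55 lay at ends of several protein-coding genes.

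Genes of the lists assembled for this tissue were seldom among the members. Of all 19974 protein-coding genes, 2.19% had a wide DMSO-alone peak at an end, and of 525 genes over 22 lists 12 (2.29%) did, a share close to that of all genes. The lists for DNA replication and S phase (0 of 30) and for mitosis and G2/M (0 of 30) had no member. They had a wide shared peak at 13 and 17 genes, against 25.3% of all protein-coding genes. No member lay in the lists for AP-1 and immediate early genes (0 of 24), chromatin regulators (0 of 28), HMG proteins (0 of 16), cytosolic ribosomal proteins (0 of 27), ribosome biogenesis (0 of 25) or mitochondrial translation (0 of 24). The same held for pancreatic epithelial identity (0 of 22), unfolded protein response and chaperones (0 of 24), NF-kB and interferon (0 of 24), MHC class I (0 of 20) and autophagy and lysosome (0 of 24). The acinar and islet list (0 of 17) and the immune, fibroblast and endothelial list (0 of 18) had none either. Intervals for these counts of 0 reach from 11.6% for the longest lists to 20.6% for the HMG list. The lists are selections, and each count covers only the genes listed. NR4A1, an immediate early gene, and MCM9 had a region at an end and stand in none of the lists.

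The Hippo list held 3 of the 12, out of 24 genes (12.5%, 2.66 to 32.4). Hippo signalling is a kinase cascade that keeps the co-activator YAP out of the nucleus. LATS2, encoding a kinase that phosphorylates YAP, had 26 fragments (16.98 to 38.1) at 10.6-fold on chromosome 13 (21061428 to 21061777). SAV1, encoding the scaffold of the upstream kinases, had 19 fragments (11.4 to 29.7) at 8.17-fold on chromosome 14 (50668183 to 50668711). FJX1, a YAP target encoding a secreted protein, had 20 fragments at 5.54-fold. A further 4 of the 24 had a wide shared peak and no member. Of all protein-coding genes, 25.3% had a wide shared peak, with or without a member. Of the rest of the Hippo list, 9 had another DMSO peak and 8 none. This list was chosen with earlier results known, in which YAP and TEAD targets already had the highest share without an inflachromene peak, so its count is not independent evidence.

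The other 6 lists with members held 1 or 2 each. EGFR, encoding the epidermal growth factor receptor, had 22 fragments at 6.87-fold and MAP2K2, encoding the kinase MEK, 15 fragments at 7.26-fold, out of 24 MAPK genes. MET, encoding the receptor of hepatocyte growth factor, had 15 fragments at 5.38-fold, the only 1 of 24 TGF-beta and mesenchymal genes. RNF8, a ubiquitin ligase gene acting at DNA breaks, had 19 fragments, and with MSH6 made 2 of the 28 repair genes listed. FASN, encoding fatty acid synthase, had 20 fragments at 3.86-fold. Unlike the other regions named here, the FASN region had no annotated start within 1000 bp of its summit. That summit lay outside the gene, 970 bp from it. TAF4, encoding a subunit of the general factor TFIID, had 24 fragments (1 of 28), and PMAIP1, encoding the apoptosis inducer NOXA, 17 fragments over 615 bp (1 of 24). At their backgrounds, 9 (MAP2K2) to 17 (FASN) fragments would have reached the level of the inflachromene list for the genes named from the lists.

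Every chromosome held some of the regions. The share of wide DMSO peaks without an inflachromene peak was lowest on chromosome 14, with 13 of 218 (5.96%, 3.21 to 9.98), and highest on chromosome 13, with 17 of 97 (17.5%, 10.6 to 26.6). Chromosome 8 had 26 of 171 (15.2%, 10.2 to 21.5) and chromosome 1, with the most, 84 of 777 (10.8%). Runs with at least 4 regions within 1 Mb, joined where they overlapped, were found at 12 places. On chromosome 16 (67872913 to 68085578), 4 of 6 wide DMSO peaks had no inflachromene peak, at NUTF2 and EDC4, in DPEP2, at DDX28 and DUS2, and at NFATC3, a calcium-regulated transcription factor gene. On chromosome 19 (6590840 to 6829329) it was 4 of 6, at CD70 and SH2D3A and inside C3 and VAV1, and on chromosome 15 (90249366 to 90902827) 4 of 6, with CIB1, NGRN, TTLL13 and MAN2A2. Near the end of the long arm of chromosome 17 (81566583 to 82273830) it was 6 of 17, with ARHGDIA, FASN and CSNK1D at ends and NPLOC4, ANAPC11 and MAFG around regions. The remaining 8 stretches were 2 on chromosome 1, 2 on chromosome 11, 2 on chromosome 19 and 1 each on chromosomes 5 and 20. Stretches were sought among 672 positions after the fact and carry no test.

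Away from protein-coding ends, lncRNA ends had overlapping intervals at the regions and at wide shared peaks, 37 of 672 (5.51%, 3.91 to 7.51) against 5.90% (5.32 to 6.52). Ends of tRNA genes were found at 1 of 672 (0.149%, 0.00377 to 0.826), against 80 of 6038 (1.32%, 1.05 to 1.65), and ends of snRNA genes at 0 of 672 (up to 0.547%), against 33 of 6038 (0.547%, 0.377 to 0.767). These counts leave out peaks at protein-coding ends, such as the regions within 1000 bp of TRR-TCT1-1 and of TRY-GTA5-1. They were not compared at equal pileup, so the part of peak strength in them was not tested. Transfer RNA genes are transcribed by RNA polymerase III. Markers of the cell line and of other cell types were counted as well. Of 9 ductal or epithelial markers, 3 had an inflachromene peak at an end and 5 a DMSO peak (KRT8, KRT18, KRT19, SOX9 and MUC1). Of 5 mesenchymal markers of PANC-1, 3 had an inflachromene peak and 4 a DMSO peak. Of all 19974 protein-coding genes, 9133 (45.7%) had a DMSO peak at an end. The ductal share is close to this, so these small counts do not by themselves identify the cell line. Neither list had a peak at 5 acinar and islet, 3 immune and 3 fibroblast and endothelial markers. In the longer list of 18 immune, fibroblast and endothelial genes, 1 had a wide shared peak, 1 another DMSO peak and 16 no DMSO peak. All 17 genes of the acinar and islet list had no DMSO peak. EPCAM, CDH1, KRT7, CFTR and CDH2 had no DMSO peak, and no marker lay at a wide DMSO-alone peak.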

How the data were processed

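The data are 2 peak lists, 1 for inflachromene and 1 for DMSO. Per the submitters' processing notes, the authors used MACS2 and deepTools 3.5.6 with the hg38 build; the sources used here name no aligner, duplicate handling, pooling or control library. The deposited lists hold a score (not used), a fold enrichment (a ratio) at the summit, −log10 p-values and −log10 q-values, and the summit's offset in bp. The lowest −log10 q was 3.01 in inflachromene and 3.02 in DMSO.

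The number of fragments over each summit was recovered from the deposited fold and −log10 p: MACS2 adds 1 to pileup and background before dividing them, and takes p from the Poisson chance of exceeding the pileup, which together fix a whole pileup. A match within 0.001 was found for all 10836 inflachromene and 15186 DMSO peaks on chromosomes 1 to 22 and X. This step was tested on simulated data made with the same formulas, which does not test the formulas. Total reads are not in the lists; the lowest background divided by implied fragment lengths of 165.7 bp (inflachromene) and 152.4 bp (DMSO) put the inflachromene library at 0.965 times the DMSO fragments.

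Genes came from RefSeq tables of GRCh38.p14, whose chromosome coordinates match hg38. A gene end is either annotated end, within 1000 bp of the summit. Shares were computed with Python 3.11.15, scipy 1.17.1 and pandas 2.3.3. With 1 sample per treatment no p-value was computed. The members, the 22 gene lists and the 18 motifs were chosen with earlier results of these data known. Named are the 12 regions of highest fold enrichment, the 8 widest, the 6 highest inside and the 6 highest between genes, up to 3 per list, and runs with at least 4 regions within 1 Mb. NR3C1 (its start lies in a region named for width) and NR4A1 were named after their values were seen. A gene that the rule names is not reported here. Alternatives changed the minimum width, the overlap rule, the peak length, the window, the q-value, the ratio and the background.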

Additional observations from a re-analysis of the deposited data

Results flagged for a closer look

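Sequences outside chromosomes 1 to 22 and X were left out of the report and entered only the alternative that used all sequence names. On 4 of 68 such sequences more wide inflachromene peaks lacked a DMSO peak than the reverse. An unlocalised sequence assigned to chromosome 14 had 3 such inflachromene peaks against 0 such DMSO peaks, and 3 unplaced sequences had 1 each against 0. Over all 68 sequences there were 7 wide inflachromene peaks alone and 9 wide DMSO peaks alone.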

How the results depend on the processing

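No paired analysis was possible because each treatment has 1 sample. The number of wide DMSO-alone peaks follows from its definition. With a minimum width of 250, 400 and 500 bp it was 1789, 318 and 107, and the share without an inflachromene peak 18.1%, 6.96% and 4.51%. With 50% reciprocal overlap it was 1228 (18.3%), and with both lists at the length of the shorter 386 (6.31%). With summits within 250 bp the share was 13.1%, and with backgrounds of 4 fragments or lower, an alternative chosen after seeing the data, 10.99%. The share at gene ends was 49.0% from 250 bp, 60.7% from 500 bp, 60.8% with reciprocal overlap, 60.9% with lists of equal length, and 49.1% and 61.6% with windows of 500 and 2500 bp. With those windows wide shared peaks had 64.6% and 74.4%, so the regions stayed below them. The median pileup was 20 fragments from 500 bp and with summits within 250 bp, and 21 with reciprocal overlap and with equal lengths. The share of summits in the outer 25% at either side, recomputed after seeing the data, was 28.1%, 44.0% and 47.7% from 250, 400 and 500 bp and 21.8% with equal lengths. With the ratio of fragment numbers 100% of the regions would reach the inflachromene level. All were high enough for a DMSO peak by choice, so nothing is read from this about the inflachromene signal. An inflachromene peak lay within 10 kb of 17.6% of the regions. The other 51 values, among them those without 19q13, on all sequence names, with −log10 q of at least 5 and with promoters whose start lies in the peak, moved by less than their 95% interval or, for counts, by less than 1.5 times; no gene-end share was computed on all sequence names. A summit of 18 fragments, the median, has a Poisson interval of 10.7 to 28.4, which limits statements about single regions.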
